A study of Mus musculus with 6 samples.

Results

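The replication-dependent histone genes encode H2A, H2B, H3, H4 and the linker histone H1, the proteins on which newly copied DNA is packed. The pattern Hist1 to Hist4 followed by a histone type was matched against the mouse gene symbols of GENCODE M21, joined by gene identifier, and it found 70 of the 55394 genes in the files. On the gene names as deposited the same pattern found only 9, Hist1h2al, Hist1h2an, Hist1h2ao, Hist1h2ap, Hist1h2bp, Hist1h2bq, Hist1h2br, Hist1h4m and Hist1h4n, because the other 61 carry newer names such as H2ac4 for Hist1h2ab. All 70 are described here, with the values of the 9 beside them. The family was chosen because Hist1h2ao had been called higher in Abx in an earlier analysis of these libraries. The difference of Hist1h2ao between the groups is therefore the value the family was selected on, and it is given as a description with no test. Other members entered by name alone, but many share sequence with Hist1h2ao, so their values are not independent of it.

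The libraries are SMART-seq of group 2 innate lymphoid cells (ILC2s), innate lymphocytes that make type 2 cytokines, sorted from the lungs of neonatal wild type C57BL/6 mice at 1000 cells a library. In the Abx group (n = 3) the dams had drunk a cocktail of ampicillin, metronidazole, neomycin and vancomycin from day 10 to day 14 of gestation, and in the Con group (n = 3) they had not. The sorted cells were primary cells taken with antibodies to CD45, CD90.2 and CD25, and cells bearing CD3e, CD4, CD5, CD8a, B220, NK1.1, TCR-β, Ter119 or myeloid markers were gated out. The labels give neither the age of the pups in days nor their sex nor how many animals a library holds, so p-values measure the spread between these libraries, which may be technical.

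Most messenger RNAs end in a poly(A) tail, whereas replication-dependent histone mRNAs end a few bases after a short stem-loop that binds the protein SLBP. They accumulate while DNA is copied in S phase and are degraded when copying stops. The genes lie in clusters, often as an H2A and an H2B gene facing away from each other across a shared promoter. The Smart-seq v4 kit starts cDNA synthesis from poly(A), so transcripts that end at the stem-loop are a poor template for it, and histone mRNA with a poly(A) tail is what it reads best.

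The family held 20 H2A, 19 H2B, 12 H3, 13 H4 and 6 H1 genes. Of the 70, 56 lay in the Hist1 cluster on chromosome 13, 10 in Hist2 on chromosome 3, 3 in Hist3 on chromosome 11 and 1, Hist4h4 (H4f16 in the files), on chromosome 6. The annotation lists 67 as protein coding, and H2ac14, Hist1h2al and H2bu1-ps as pseudogenes. In 46 annotated transcripts the histone stem-loop consensus of 16 bases was found, with 100 bases or more annotated after it in 23 of them, and 26 of these carried the same 16 bases. The stem-loops of 4 genes are shown because the levels of these genes are described below, with the stem-loop in capitals and 5 bases on each side in lower case. In GRCm38 they lie at chr13:21810893-21810918 (Hist1h2ao, plus strand), chr13:22042478-22042503 (H2ac11, minus strand), chr13:21722501-21722526 (H2bc14, plus strand) and chr13:23747198-23747223 (H2bc3, plus strand), after the coding sequence, and H2bc3 carries 1 of the 7 other versions.
Hist1h2ao: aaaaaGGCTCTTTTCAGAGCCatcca
H2ac11: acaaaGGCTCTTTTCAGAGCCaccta
H2bc14: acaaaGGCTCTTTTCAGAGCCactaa
H2bc3: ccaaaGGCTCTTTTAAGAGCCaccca

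The H2A genes are close copies. Their 18 coding members hold 16 different coding sequences but only 9 different proteins, and 9 genes, Hist1h2ao among them, encode the same protein of 130 residues. Likewise 12 H3 genes encode 2 proteins and 13 H4 genes encode 1, while the 18 coding H2B genes encode 11 and each of the 6 H1 genes encodes its own. The start of the coding sequence (bases 1 to 60, plus strand of the transcript) is shown for Hist1h2ao and for 4 genes whose levels were also higher in Abx, to show how little of a read can tell them apart. Capitals mark the bases that differ from Hist1h2ao. In GRCm38 they lie in exons at chr13:21810467-21810526 (Hist1h2ao, plus strand), chr13:21833416-21833475 (Hist1h2ap, minus strand), chr13:23751133-23751192 (H2ac4, plus strand), chr13:22042868-22042927 (H2ac11, minus strand) and chr13:23574471-23574530 (H2ac7, plus strand).
Hist1h2ao: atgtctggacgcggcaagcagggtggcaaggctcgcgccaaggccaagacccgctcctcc
Hist1h2ap: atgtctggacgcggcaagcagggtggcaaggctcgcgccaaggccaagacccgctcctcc
H2ac4: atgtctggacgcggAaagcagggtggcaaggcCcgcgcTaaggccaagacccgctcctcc
H2ac11: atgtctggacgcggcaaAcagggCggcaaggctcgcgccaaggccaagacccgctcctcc
H2ac7: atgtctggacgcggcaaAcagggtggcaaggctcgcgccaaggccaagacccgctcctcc

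Hist1h2ap matched Hist1h2ao over the whole coding sequence of 390 bases, and H2ac11 and H2ac7 each differed from it at 3 bases and H2ac4 at 8. As a measure of how far reads can be assigned, each annotated transcript was cut into every window of 100 bases, and a window was counted as shared when it occurs in a transcript of another gene. Of the 381 windows of Hist1h2ao, 92.65% were shared, 353 of them with Hist1h2ap and 263 with H2ac11. The median share was 69.9% over the H2A genes, 40.1% over H2B, 49.8% over H3, 19.0% over H4 and 0.395% over H1. How the reads of such windows were divided among copies is not given in the sources used here, so the level of a single copy is uncertain where the share is high, and that of a type is less so.

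The promoters of these genes are shown for Hist1h2ao, whose RefSeq name is H2ac23, and for H2bc14, which had the largest fitted change of the family. Each is 150 bases before the RefSeq start, on the plus strand of GRCm38.p6, at chr13:21810217-21810366 and chr13:21721894-21722043. Capitals mark the CCAAT box, a motif of many S phase promoters, on either strand (CCAAT or ATTGG).
Hist1h2ao: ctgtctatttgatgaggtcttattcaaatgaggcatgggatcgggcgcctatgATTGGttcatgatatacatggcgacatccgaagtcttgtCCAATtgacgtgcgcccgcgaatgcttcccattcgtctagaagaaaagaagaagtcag
H2bc14: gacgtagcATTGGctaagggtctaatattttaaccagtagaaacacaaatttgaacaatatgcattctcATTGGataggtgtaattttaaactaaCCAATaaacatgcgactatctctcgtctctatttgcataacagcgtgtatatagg

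RefSeq promoters were found for 61 members. Over the 250 bases before the start, CCAAT stood on either strand in 81.97% of them, against 33.85% of all 32851 promoters. By type it was found in 18 of 18 H2A promoters, 16 of 16 H2B, 5 of 5 H1, 8 of 10 H3 and 3 of 12 H4. TATAAA, searched on both strands, stood in 45.9% of the members and 12.37% of all promoters. A match is a description of the sequence and not a binding site.

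Total FPKM ranged from 420941 to 489262 over the 6 libraries, and 8574 to 9203 genes reached 1 FPKM in Con against 7074 to 8193 in Abx. Read numbers are unknown, so no value carries a counting error. Xist, the RNA of the inactive X chromosome, was at 3.78 to 5.09 FPKM across Con, whereas all Abx libraries had it at 0, so sex and exposure cannot be told apart. The tests compared 8718 genes (those reaching 1 FPKM in 3 or more of the 6 libraries) on log2(FPKM + 1) with limma, two-sided, with Benjamini-Hochberg adjustment over all of them. Calls needed more than a 2-fold difference and an adjusted p under 0.05. A log2 fold change on this scale understates the change of genes near 0.

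Histone transcripts made up more of the Abx libraries, and most of the excess was H2A. The 70 genes took 0.121%, 0.144% and 0.157% of total FPKM in Con replicates 1 to 3, and 0.585%, 0.365% and 0.357% in Abx. The lowest Abx library lay above the highest Con library, and the mean was 3.10-fold higher, at 0.436 ± 0.130% against 0.141 ± 0.018% (SD, n = 3 each). Without Hist1h2ao the share was 0.116 ± 0.020% in Con against 0.230 ± 0.054% in Abx, 1.98-fold higher and still without overlap, from 0.0972% to 0.136% in Con, and from 0.197% to 0.292% in Abx. The 9 genes that keep the older name in the files took 0.0233% to 0.0363% in Con against 0.176% to 0.306% in Abx. Most of it was Hist1h2ao, since the other 8 summed to 9.17 to 30.1 FPKM in Con against 54.0 to 69.3 FPKM in Abx. A share over the members has no test here, and in bulk libraries more cells in S phase and more histone mRNA in each cell cannot be told apart.

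**Figure D1:**
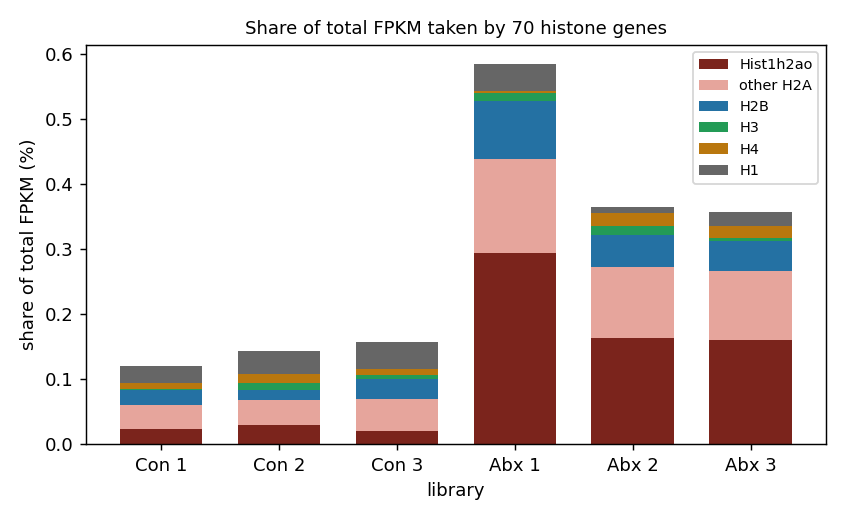
Share of total FPKM (%, from 0) taken by the 70 histone genes in each of the 3 Con and 3 Abx libraries, stacked by histone type, with Hist1h2ao apart from the other H2A genes. The bars reach 0.121% to 0.157% in Con against 0.357% to 0.585% in Abx, and H2A fills most of the difference.

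By type, H2A and H2B stood apart between the groups, and H3, H4 and H1 did not. The H2A share was 0.0658 ± 0.0052% in Con against 0.326 ± 0.098% in Abx (SD, n = 3), 4.96-fold higher, and 2.92-fold higher without Hist1h2ao. The H2B share was 0.0231 ± 0.0073% in Con against 0.0614 ± 0.0231% in Abx, 2.66-fold higher, with the lowest Abx library at 0.0466% and the highest Con library at 0.0305%. Without H2bc14, which passed the filter described below through its Abx libraries alone, it was 1.99-fold higher. It then ran from 0.0158% to 0.0305% in Con and from 0.0387% to 0.0556% in Abx, still apart. H2A made up 44.3% to 49.6% of all histone FPKM in Con libraries, and 74.5% to 75.0% in Abx libraries. These values include Hist1h2ao, the gene the family was selected on. It alone made up 13.4% to 20.4% of histone FPKM in Con and 44.8% to 50.2% in Abx. Without it H2A took 0.0364% to 0.0486% of total FPKM in Con and 0.106% to 0.146% in Abx. The whole family without it took 0.0972% to 0.136% in Con and 0.197% to 0.292% in Abx.

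The H3 share overlapped, at 0.00241% to 0.0104% in Con against 0.00519% to 0.0133% in Abx. The H4 share overlapped as well, at 0.00944% to 0.0139% in Con against 0.00210%, 0.0203% and 0.0176% in Abx replicates 1 to 3, so the Abx library with the most H2A had the least H4. H1 was at 0.0261% to 0.0413% in Con against 0.00841% to 0.0427% in Abx. Each of these 3 types was below 0.05% of total FPKM in all libraries.

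By cluster, Hist1 took 0.113 ± 0.012% in Con against 0.390 ± 0.123% in Abx (SD, n = 3), 3.45-fold higher with no overlap. Hist2 took 0.0195% to 0.0308% in Con against 0.0289% to 0.0456% in Abx, which overlap by 1 library. Hist3 was at 0.00147% to 0.00487% in Con against 0.00443% to 0.0130% in Abx, also with overlap, and H4f16, the only member of Hist4, was at 2.60 FPKM or less in each library.

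Detection differed little. Of the 70 genes 67 were above 0 in at least 1 library, 56 reached 1 FPKM somewhere and 44 reached 5 FPKM, while H1f6, H2bc18 and H3c13 were listed at 0 throughout. Between 48 and 58 were above 0 in a Con library and between 55 and 58 in an Abx library, and 27 to 32 reached 1 FPKM in Con against 31 to 41 in Abx. In H2A the number at 1 FPKM or more was 10, 10 and 11 in Con against 14, 14 and 13 in Abx. Among the 9 genes with the older name, 8 reached 1 FPKM somewhere.

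Of the 70 genes 37 passed the filter and were tested, 29 fitted higher in Abx and 8 lower. Only Hist1h2ao was called, where 0.0459% of all genes tested were called higher and 0.0115% lower. Of the other 36, none was called by limma, and an unadjusted p under 0.05 was reached by 9 higher genes and 1 lower gene, against 4.74% of all genes tested higher and 6.25% lower. Every Abx library lay above every Con library in 10 of the 36 and below in 1, against 8.49% and 8.73% of all genes tested. The 36 had a median log2 fold change of 0.80, and all genes tested −0.06. The filter itself bears on these counts, because 3 of the 37 (H2ac10, Hist1h2an and H2bc14) passed through their Abx libraries alone and 1 (H1f5) through its Con libraries alone. Without those 3, 7 of 33 were higher at an unadjusted p under 0.05 and 7 lay above without overlap, with a median of 0.73.

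**Figure D2:**
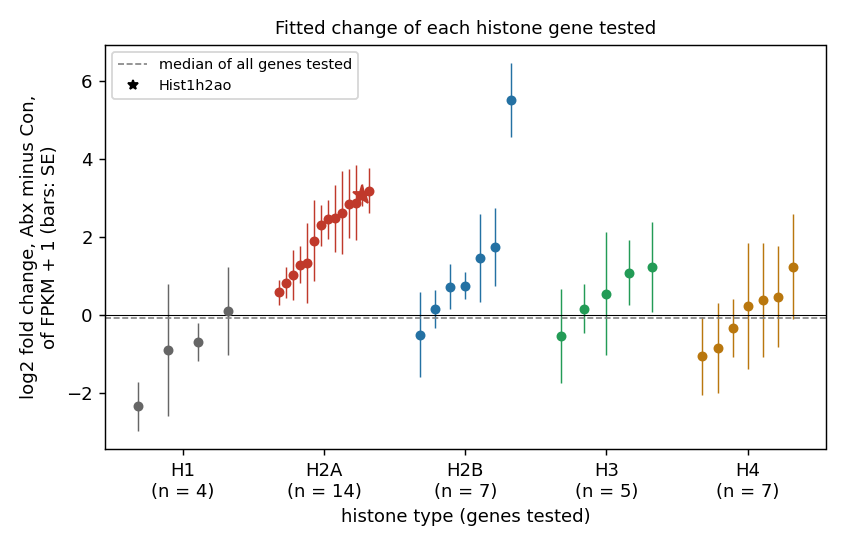
Fitted log2 fold change (Abx minus Con, on FPKM + 1) of the 37 histone genes tested, grouped by type, with bars for the SE and a star for Hist1h2ao. All 14 H2A genes lie above 0, H2bc14 is the highest point at 5.52, and H3, H4 and H1 genes lie on both sides of 0.

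Hist1h2ao was the most abundant of the 70 genes in the Abx libraries. It spans 480 bases on the plus strand at chr13:21810465-21810944 (ENSMUSG00000094248), with 85 bases after the stop codon. Its level was 106, 124 and 88.7 FPKM in Con replicates 1 to 3 and 1316, 803 and 690.5 FPKM in Abx. Each Abx library was more than 5 times any Con library. Its rank by FPKM among all genes went from between 505 and 708 in Con to 42, 78 and 79 in Abx, and it made up 30.2% to 43.4% of H2A FPKM in Con against 60.1% to 66.8% in Abx. The log2 fold change was 3.08 ± 0.28 (SE), with no test, and the call that selected it was lost in 11 of the 13 other settings tried, where the log2 fold change kept between 2.81 and 3.28.

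Hist1h2ap, 23.0 kb away on the opposite strand and with the same coding sequence, was at 1.70, 3.96 and 2.54 FPKM in Con against 35.4, 22.0 and 43.1 FPKM in Abx. Its log2 fold change was 3.20 ± 0.59 (SE, adjusted p = 0.091), with no overlap. The order of the Abx libraries differed from that of Hist1h2ao, which was highest in Abx replicate 1. Hist1h2an, 23.2 kb to the other side and also encoding the same protein, was at 0, 0.07 and 0.75 FPKM in Con against 14.7, 9.39 and 1.02 FPKM in Abx (log2 fold change 2.49 ± 0.87, adjusted p = 0.31). A pseudogene outside the name pattern, Gm11336 (H2ac5-ps in the files), which shares 100 of the 381 windows of Hist1h2ao, was at 2.49 to 4.27 FPKM in Con against 23.2 to 26.2 FPKM in Abx.

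Among H2A genes farther from Hist1h2ao, H2ac4 (Hist1h2ab) was at 21.2, 30.0 and 13.7 FPKM in Con against 61.5, 186 and 143 FPKM in Abx, a log2 fold change of 2.46 ± 0.49 (adjusted p = 0.097). H2ac11 (Hist1h2ag) was at 6.17, 3.74 and 3.67 FPKM in Con against 31.7, 24.6 and 22.1 FPKM in Abx, with a log2 fold change of 2.31 ± 0.53 (adjusted p = 0.12). Both groups were tight for H2ac11, and neither gene's groups overlapped. H2ac7 (Hist1h2ad) was at 12.3, 3.57 and 1.42 FPKM in Con against 144, 22.9 and 16.5 FPKM in Abx (log2 fold change 2.89 ± 0.97, adjusted p = 0.28), so that 1 Abx library held most of its level. H2ac13 (Hist1h2ai) was at 16.5, 7.69 and 20.6 FPKM in Con against 46.7, 29.0 and 33.3 FPKM in Abx (log2 fold change 1.3 ± 0.48, adjusted p = 0.35), and H2ac10 (Hist1h2af) did not overlap either, at 0.04 to 0.56 FPKM in Con against 1.35 to 1.5 FPKM in Abx.

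Genes of the other clusters share less sequence with Hist1h2ao. H2ac20 (Hist2h2ac) on chromosome 3, with 16.86% of its windows of 100 bases and 54.99% of windows of 50 bases shared, and none of the former with Hist1h2ao, was at 0.08, 8.21 and 3.87 FPKM in Con against 36.8, 17.0 and 26.7 FPKM in Abx (log2 fold change 2.87 ± 0.89, adjusted p = 0.23). H2aw (Hist3h2a) on chromosome 11, with 29.8% shared and likewise none with Hist1h2ao, was at 6.92, 0.07 and 20.5 FPKM in Con against 33.1, 21.3 and 55.9 FPKM in Abx (log2 fold change 2.63 ± 1.07, adjusted p = 0.41). The groups of both genes lay apart in FPKM, although those of H2aw came within 1 FPKM of each other. As a share of total FPKM H2aw overlapped, with Con replicate 3 at 0.00487% and Abx replicate 2 at 0.00436%. Its log2 fold change ran from 1.43 to 3.59 with 1 library left out.

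H2ac18 (Hist2h2aa1) was the second H2A gene by level. It was at 73.1, 81.7 and 122 FPKM in Con against 160, 159 and 98.0 FPKM in Abx, overlapping, with a log2 fold change of 0.59 ± 0.31 (adjusted p = 0.56). All its windows are shared, and its copy H2ac19 was listed at 0 in 5 of 6 libraries, so the division between them is uncertain. H2ac8, H2ac6 and H2ac15 also overlapped, with log2 fold changes of 1.04, 1.35 and 1.91. H2ac8 (Hist1h2ae) went from 10.4, 13.1 and 12.5 FPKM in Con to 66.2, 19.1 and 13.1 FPKM in Abx, where the lowest Abx library lies just below the highest Con library.

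In all, the 13 H2A genes tested besides Hist1h2ao fitted higher in Abx, 8 at an unadjusted p under 0.05 and 9 without overlap, where 4.74% and 8.49% of all genes tested did so in this direction. Without Hist1h2an and H2ac10, which passed the filter through Abx alone, the counts were 11, 7 and 7. The median log2 fold change over the 13 was 2.31, over the 11 also 2.31, and with no filter it was 1.3 over 19 genes. Leaving out Abx replicate 1 gave a median of 1.89. The 8 other genes that encode the Hist1h2ao protein were all tested, and 6 of them did not overlap, or 5 of 7 without Hist1h2an. Among H2A genes with under 35% of their windows of 100 bases shared, 5 were tested, 2 did not overlap and the median was 1.91. Among those with 35% or more, Hist1h2ao left out, 8 were tested, 7 did not overlap and the median was 2.39, and 5 of 6 did not overlap without Hist1h2an and H2ac10. The summed level of the 7 H2A genes with under 35% shared was 17.8 to 40.2 FPKM in Con against 76.8 to 156 FPKM in Abx, so it too lay apart. This class is not free of sequence shared with Hist1h2ao. H2ac6, H2ac8 and H2ac15 share 173, 137 and 31 of the 381 windows of Hist1h2ao. Of the 6 H2A genes not tested, H2ac21 reached 14.5 FPKM in Con replicate 1 and 0.13 FPKM or less elsewhere, and the other 5 stayed below 1 FPKM.

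**Figure D3:**
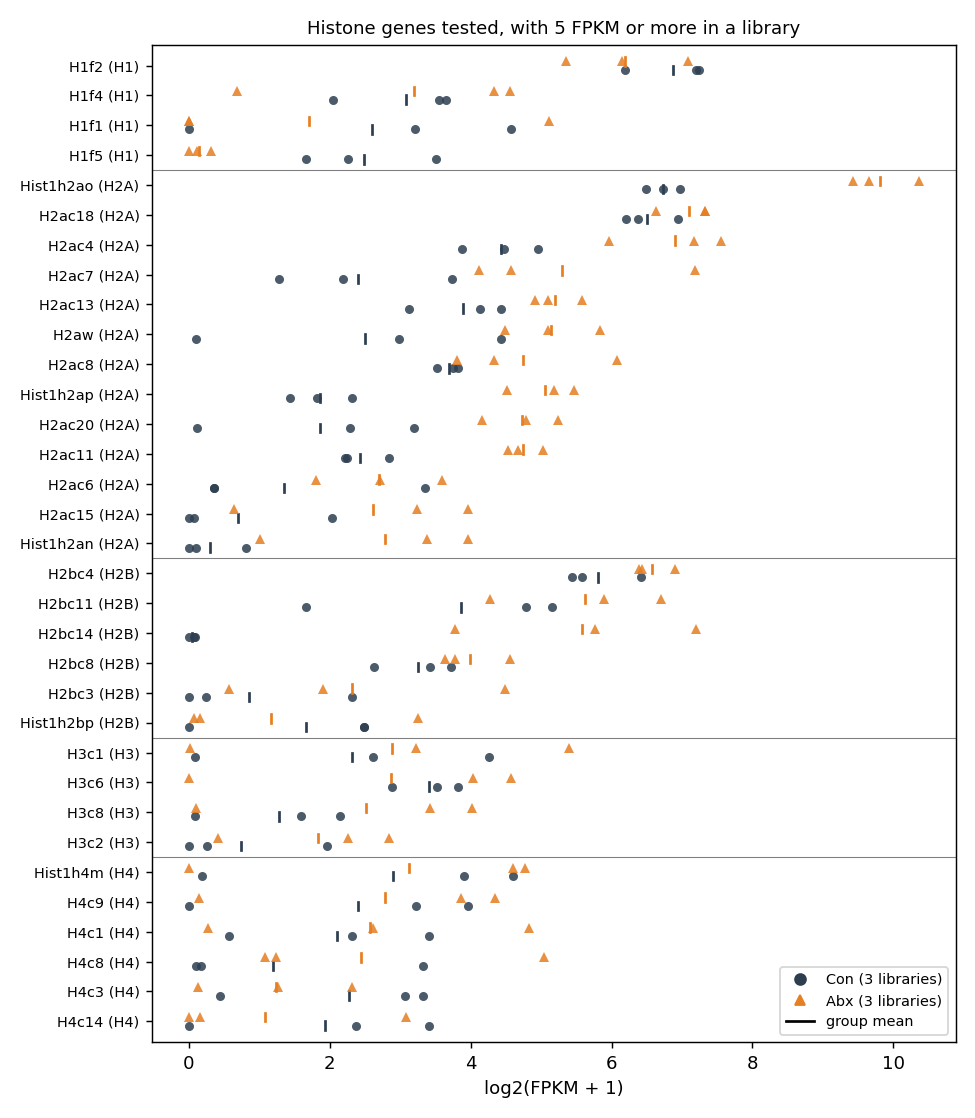
Level, log2(FPKM + 1), of the tested histone genes that reached 5 FPKM in at least 1 library, in 3 Con libraries (circles) and 3 Abx libraries (triangles), with a short line at each group mean. Abx triangles lie to the right of all Con circles for Hist1h2ao, Hist1h2ap, Hist1h2an, H2ac4, H2ac7, H2ac11, H2ac13, H2ac20, H2aw and H2bc14, and to the left for H1f5.

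H2B pairs with H2A in the nucleosome. The most abundant H2B gene, H2bc4 (Hist1h2bc), was at 42.3, 46.8 and 84.9 FPKM in Con against 84.9, 118 and 82.8 FPKM in Abx, with a log2 fold change of 0.76 ± 0.35 (adjusted p = 0.48). H2bc11 (Hist1h2bj) was at 34.6, 2.17 and 26.6 FPKM in Con against 103, 18.4 and 58.5 FPKM in Abx (log2 fold change 1.75 ± 1.01, adjusted p = 0.61, and 0.65 to 2.43 with 1 library left out). Both overlapped, as did H2bc8, H2bc3, Hist1h2bq and Hist1h2bp, whose log2 fold changes ran from −0.50 to 1.47.

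H2bc14 (Hist1h2bm, chr13:21722044-21722567, plus strand, ENSMUSG00000114279) differed from the other H2B genes. It was at 0.05, 0 and 0.06 FPKM in Con against 145, 53.2 and 12.7 FPKM in Abx. The Con libraries were at or near 0 and the Abx libraries spread more than 10-fold among themselves. Its log2 fold change was 5.52 ± 0.95 (SE, adjusted p = 0.091), and between 4.72 and 10.4 under the other settings, where it grew with a smaller pseudocount. The gene passed the filter through its Abx libraries alone, so its p draws on the group where it is high. Of its windows of 100 bases 6.59% are shared, and of windows of 50 bases 43.79%, while the read length behind the values was not used here. Without H2bc14 the H2B sum would be 12.7 to 145 FPKM lower in Abx, where it was 394, 243 and 201 FPKM, against 103, 67.0 and 128 FPKM in Con.

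Of the 19 H2B genes 7 were tested, 6 fitted higher, and H2bc14 was the only one at an unadjusted p under 0.05 or without overlap. Without it, given that its filter rested on Abx, these counts were 0 of 6. Of those not tested, H2bc15 (Hist1h2bn) was at 0.15 to 0.42 FPKM in Con against 36.8, 1.91 and 0.33 FPKM in Abx, H2bc12 (Hist1h2bk) reached 17.2 FPKM in Abx replicate 2 and H2bc21 (Hist2h2be) 6.23 FPKM in the same library. H2bu2 (Hist3h2ba) reached 6.10 FPKM in Con replicate 2, and H2bc6 (Hist1h2be) 5.79 FPKM in Abx replicate 1. In each of these genes 1 library held most of the level.

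H3 and H4 form the core tetramer of the nucleosome. None of the 5 H3 and 7 H4 genes tested was without overlap or at an unadjusted p under 0.05, with log2 fold changes from −0.54 to 1.24 for H3 and from −1.04 to 1.25 for H4. H3c1 (Hist1h3a) was at 0.06, 18.2 and 5.15 FPKM in Con against 41.0, 8.39 and 0.01 FPKM in Abx. H3c6 (Hist1h3e) was at 6.36, 10.5 and 13.1 FPKM in Con against 0, 22.8 and 15.4 FPKM in Abx. Like most genes of these types, each was absent or near 0 in some library of a group and at several FPKM in another.

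Hist1h4m, the highest H4 gene in Abx, was at 13.9, 23.2 and 0.14 FPKM in Con against 0, 26.4 and 23.4 FPKM in Abx. H4c9 (Hist1h4i) was at 0, 14.6 and 8.36 FPKM in Con against 0.11, 19.3 and 13.6 FPKM in Abx. The range within a group exceeded any difference between the groups in both. H3c8, H3c2, H4c8, H4c1, H4c3 and H4c14 reached between 6.15 and 31.8 FPKM at most and overlapped. Among those not tested, H3c11 and H4c11 reached 12.4 and 7.75 FPKM in Abx replicate 2, H3c7 reached 11.5 FPKM in Con replicate 2, Hist1h4n 8.87 FPKM in Con replicate 1 and H4c6 9.13 FPKM in Con replicate 3, and each was below 4 FPKM in its other libraries. The H4 genes had a median log2 fold change of 0.23, which became −0.84 with a pseudocount of 0.01 and −0.52 without Con replicate 1.

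H1 binds the DNA between nucleosomes. H1f2 (Hist1h1c) had the highest mean of the 70 genes in Con, at 72.0, 147 and 150.1 FPKM, and was at 135, 39.8 and 69.7 FPKM in Abx (log2 fold change −0.68 ± 0.49, adjusted p = 0.69). H1f5 (Hist1h1b) was at 10.4, 2.18 and 3.79 FPKM in Con against 0.08, 0 and 0.24 FPKM in Abx, the only tested member with every Abx library below every Con library (log2 fold change −2.34 ± 0.62, adjusted p = 0.17). It lies 29.8 kb from Hist1h2ao, within the same stretch. H1f4 (Hist1h1e) and H1f1 (Hist1h1a) overlapped, with log2 fold changes of 0.11 and −0.89.

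By level the order of the leading genes in Con was H1f2, Hist1h2ao, H2ac18 and H2bc4, at 123 ± 44.1, 106 ± 17.9, 92.1 ± 25.9 and 58.0 ± 23.4 FPKM (SD, n = 3), and neighbours in it did not differ beyond their spread. In Abx it was Hist1h2ao at 936 ± 333 FPKM, H2ac18 at 139 ± 35.3 FPKM, H2ac4 at 130.3 ± 63.5 FPKM, H2bc4 at 95.4 ± 19.9 FPKM and H1f2 at 81.4 ± 48.6 FPKM. Only the step from Hist1h2ao to H2ac18 exceeded the spread there.

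The Hist1 genes fall into 5 stretches split by gaps over 100 kb, of which the first (chr13:21715763-21837530, 19 genes) holds Hist1h2ao. Its share of total FPKM was 7.09-fold higher in Abx with Hist1h2ao, the gene the family was selected on, 4.16-fold without it, and 2.55-fold when Hist1h2an and H2bc14, tested through their Abx libraries alone, were left out too. The share of the second stretch (5 genes, from 225 kb) was 2.93-fold higher and that of the third (29 genes, from 1721 kb) 1.67-fold, and all of these lay apart. Of the 10 other genes tested in the first stretch 4 had all Abx libraries above Con, and 1, H1f5, had them below, where 8.49% and 8.73% of all genes tested did. Leaving out Hist1h2an and H2bc14 as well, 2 of 8 lay above, Hist1h2ap and H2ac13. In the second stretch it was 1 of 3 above and in the third 3 of 19, which were H2ac4, H2ac7 and H2ac10, the last tested through Abx alone.

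**Figure D4:**
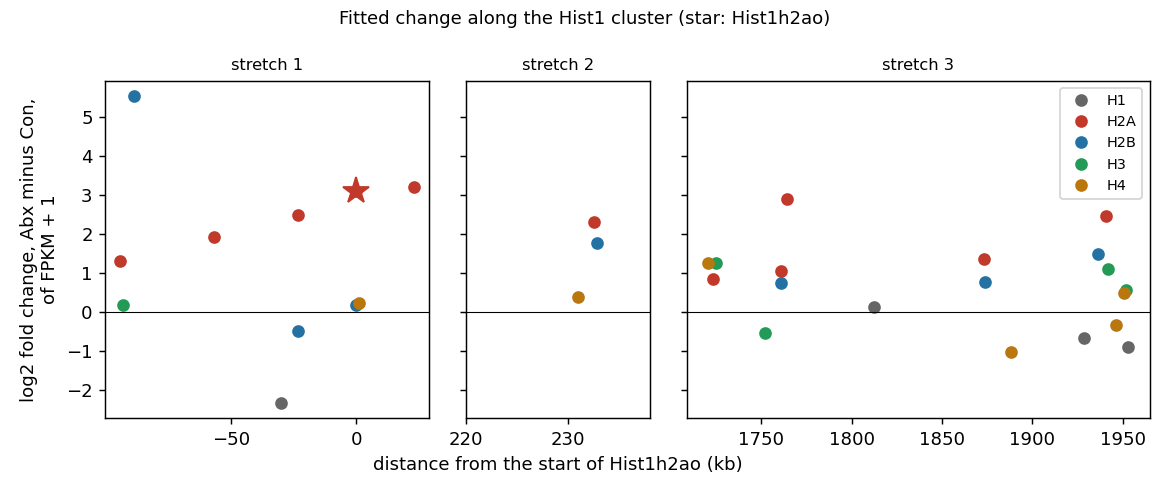
Fitted log2 fold change (Abx minus Con, on FPKM + 1) of tested Hist1 genes against distance from the start of Hist1h2ao (kb), in the 3 stretches that hold tested genes, coloured by histone type. H2A genes lie above 0 along the whole cluster, while H4, H3 and H1 genes next to them lie between −2.34 and 1.25.

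The divergent pairs set H2A and H2B genes with starts 173 to 306 bases apart beside each other. There were 14 such pairs. In the 13 pairs without Hist1h2ao, 10 H2A and 5 H2B genes were tested. All Abx libraries lay above Con in 7 of these H2A genes, 1 of which had passed the filter through Abx alone, and in 1 of these H2B genes, H2bc14, which had passed it the same way, against 8.49% of all genes tested. In each of the 4 pairs where both were tested the H2A gene had the larger log2 fold change. In 1 of them, Hist1h2an/Hist1h2bp, Hist1h2an was tested through Abx alone. The values were 1.35 against 0.76 in H2ac6/H2bc4, 1.04 against 0.73 in H2ac8/H2bc8 and 2.31 against 1.75 in H2ac11/H2bc11. Each of these differences was smaller than the larger SE in its pair (1.03, 0.64 and 1.01). The change of Hist1h2ao was fixed by the selection, and its partner Hist1h2bq, 268 bases from it, was at 0.56, 1.45 and 1.03 FPKM in Con against 1.3, 1.92 and 0.61 FPKM in Abx (log2 fold change 0.16 ± 0.48, adjusted p = 0.93). All windows of Hist1h2bq are shared with other genes, so its own level is uncertain. H2ac14/H2bc14 was the reverse, with the pseudogene H2ac14 at 0.69 FPKM or less in each library.

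**Figure D5:**
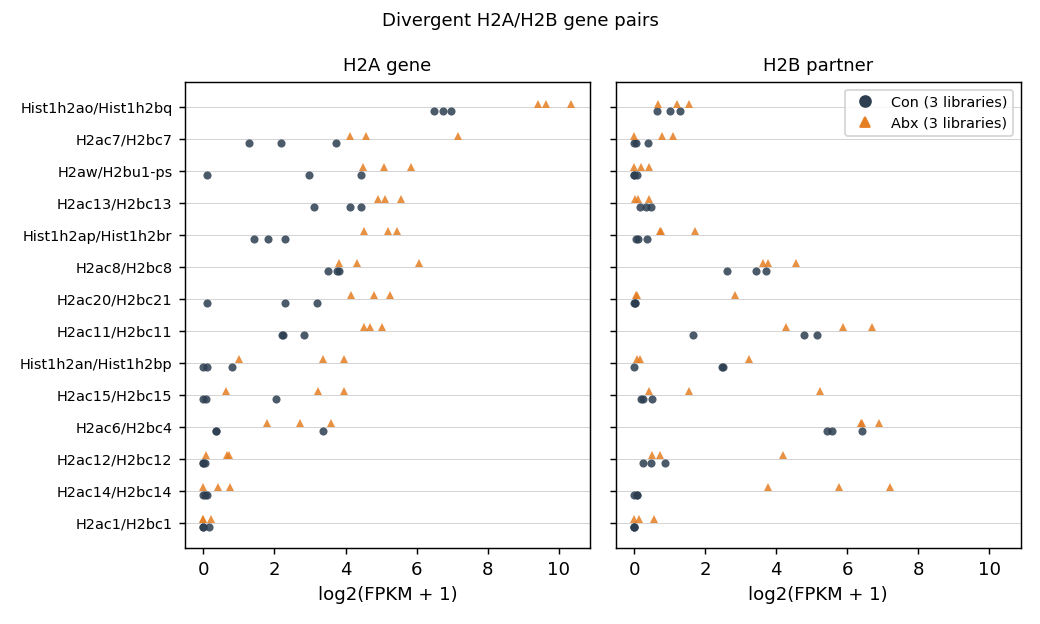
Level, log2(FPKM + 1), of the H2A gene (left) and the H2B gene (right) of the 14 divergent pairs, in 3 Con libraries (circles) and 3 Abx libraries (triangles). In the top row Hist1h2ao lies between 690.5 and 1316 FPKM in Abx while Hist1h2bq stays below 2 FPKM, and in H2ac14/H2bc14 only the H2B gene moves.

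The fitted changes were also set beside how far the annotation runs past the stem-loop. Of 23 genes with under 100 bases annotated after the stem-loop 17 were tested, and without Hist1h2ao the median log2 fold change was 2.66 over 6 H2A genes and 1.17 over 10 others. Without H2bc14, tested through Abx alone, the latter was 1.10 over 9. Of 23 genes with 100 bases or more, 11 were tested, and the medians were 1.35 over 3 H2A genes and −0.21 over 8 others. Of 24 genes with no stem-loop in the annotated transcript 9 were tested, with medians of 1.61 over 4 H2A genes and 0.16 over 5 others. Of the 4, Hist1h2an and H2ac10 were tested through Abx alone, and of the 5, H1f5 through Con alone. These classes were made after the values were seen, FPKM depends on the annotated length, and the groups are not compared by a test.

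Histone variants outside the name pattern gave a mixed picture. Of 14 genes listed 10 were tested, 5 fitted higher and 5 lower, none was called by limma, and the median log2 fold change was 0.06. At an unadjusted p under 0.05, where 4.74% of all genes tested were higher and 6.25% lower, stood 2 higher genes. These were H2az1 (H2afz), at 566, 492 and 569.7 FPKM in Con against 1227, 842 and 749 FPKM in Abx (log2 fold change 0.76 ± 0.22, SE, adjusted p = 0.20), and H2ax (H2afx), which marks DNA breaks, at 35.8, 30.8 and 28.8 FPKM in Con against 121, 83.1 and 57.6 FPKM in Abx (1.37 ± 0.35, adjusted p = 0.14). H2az2 (H2afv) overlapped with a log2 fold change of 0.35. The replacement H3 genes H3f3a and H3f3b overlapped, with log2 fold changes of −0.04 and 0.15, and so did the linker H1f0 with −1.08. H1f10 was at 0.19 FPKM or less.

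The factors that make and end histone mRNA were measured as well. Of 17 found among 19 listed (Cpsf3l and Symplk were not matched), 13 were tested, 4 fitted higher and 9 lower, and none was called by limma. An unadjusted p under 0.05 was reached by 2 higher and 1 lower gene, against 4.74% of all genes tested higher and 6.25% lower. The lower gene was Cpsf1, at 3.18 to 7.30 FPKM in Con against 0.05 to 0.07 FPKM in Abx (−2.53 ± 0.53, adjusted p = 0.10). Cpsf1 passed the filter through its Con libraries alone. Slbp, which binds the stem-loop, was at 27.4, 32.2 and 25.7 FPKM in Con against 58.7, 63.6 and 53.4 FPKM in Abx, with a log2 fold change of 1.02 ± 0.30 (adjusted p = 0.20). Lsm10, of the U7 particle that cuts the mRNA after the stem-loop, was at 18.8, 11.9 and 7.53 FPKM in Con against 68.7, 34.4 and 30.0 FPKM in Abx (1.71 ± 0.51, adjusted p = 0.21). Its partner Lsm11 overlapped with −0.80, Casp8ap2 with −0.61, and Npat, the activator of histone transcription, was at 3.87 FPKM or less in each library.

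Of 19 histone chaperones and import factors 15 were tested, 10 fitted higher and 5 lower. None was called by limma, and the median log2 fold change was 0.32. An unadjusted p under 0.05 was reached by 2 higher genes, Asf1a and Cabin1. Asf1a was at 8.38 to 11.1 FPKM in Con against 17.5 to 26.9 FPKM in Abx (1.13 ± 0.46, adjusted p = 0.405). Cabin1 was at 0.81 FPKM or less in Con against 4.2 to 5.33 FPKM in Abx (2.18 ± 0.54, adjusted p = 0.14). Cabin1 passed the filter through its Abx libraries alone, and without it only Asf1a is left. Asf1b, an H3/H4 chaperone of dividing cells, was at 48.4, 75.1 and 61.6 FPKM in Con against 36.1, 47.2 and 48.3 FPKM in Abx (−0.47 ± 0.31, adjusted p = 0.65), each Abx library just below Con. Chaf1a and Chaf1b, of the assembly factor at the replication fork, and Nasp overlapped, with log2 fold changes of 0.30, 0.77 and 0.32.

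Of 40 S phase genes 37 were tested, 26 fitted higher and 11 lower, with a median log2 fold change of 0.70. None was called by limma. An unadjusted p under 0.05 was reached by 9 higher genes and 1 lower gene, against 4.74% of all genes tested higher and 6.25% lower. All Abx libraries lay above Con in 10 and below in 1, where 8.49% and 8.73% of all genes tested did. The lower gene was Gins4, of the replicative helicase, at 45.6 to 62.5 FPKM in Con against 21.9 to 29.3 FPKM in Abx (−1.10 ± 0.32, adjusted p = 0.20). Pcna, the sliding clamp of replication, was at 97.5, 120 and 119 FPKM in Con against 193, 228 and 257 FPKM in Abx (1.0 ± 0.22, adjusted p = 0.11). Mcm2, of the replicative helicase, was at 4.27 to 11.3 FPKM in Con against 23.2 to 41.5 FPKM in Abx (1.82 ± 0.53, adjusted p = 0.20). Ccne2, a cyclin of S phase entry, was at 0.02 FPKM or less in Con against 13.7 to 28.2 FPKM in Abx (4.26 ± 0.68, adjusted p = 0.091). Ccne2 is among the 9 and the 10, but it passed the filter through its Abx libraries alone, so its p draws on the group where it is high. Ccne1, Rrm2 and Tyms overlapped, with log2 fold changes of 1.26, 0.02 and 1.0, and Mcm5 was below 1 FPKM in 5 libraries.

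Of 20 mitosis genes 16 were tested, 12 fitted higher and 4 lower, and none was called by limma. An unadjusted p under 0.05 was reached by 1 higher and 1 lower gene, against 4.74% of all genes tested higher and 6.25% lower. The higher gene was Ttk, at 7.76 to 12.8 FPKM in Con against 17.0 to 62.3 FPKM in Abx (1.47 ± 0.60, adjusted p = 0.41). The lower gene was Kif23, at 3.78 to 7.81 FPKM in Con against 0.06 FPKM or less in Abx (−2.55 ± 0.52, adjusted p = 0.097). Kif23 passed the filter through its Con libraries alone. Top2a, a topoisomerase of dividing cells, was at 3.76 to 8.40 FPKM in Con against 10.5 to 27.1 FPKM in Abx (1.31 ± 0.64, adjusted p = 0.52). Mki67, the proliferation marker, overlapped at −0.85 ± 0.85 (adjusted p = 0.78).

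Marker sums of other lymphocytes were also higher in Abx. Of 11 B cell markers 9 were tested and 8 fitted higher, their sum was 612 to 803 FPKM in Con against 1950 to 2360 FPKM in Abx, and Ly6d and H2-Ab1 were called (3.23 ± 0.31 and 2.80 ± 0.29, adjusted p = 0.035 and 0.045), while the B cell receptor gene Cd79b went the other way, at 69.5 to 117 FPKM in Con against 31.0 to 57.4 FPKM in Abx (−0.82 ± 0.37, adjusted p = 0.47). The defining gene Pax5 was listed at 0 in each Con library and at 2.33, 0.33 and 0 FPKM in Abx replicates 1 to 3, so the groups overlapped. Blnk went the other way, at 2.82 FPKM in Con replicate 1 and 0.11 FPKM or less in all other libraries. Neither Pax5 nor Blnk passed the filter. Of 11 T cell markers 8 were tested and 7 fitted higher, with a sum of 1293 to 1469 FPKM in Con against 2729 to 3119 FPKM in Abx. Most of this sum was Trbc1 (208 to 387 FPKM in Con, 633 to 778 FPKM in Abx) and Trbc2 (874 to 958 FPKM in Con, 1639 to 1803 FPKM in Abx). Trac fitted lower (−0.19 ± 1.19, adjusted p = 0.98), and Cd3e overlapped (0.96 ± 0.83, adjusted p = 0.74). Cd4 was at 0 in 5 libraries and Cd8a in 4. The sum of 7 thymocyte genes was 6.51 to 40.6 FPKM in Con against 174 to 203 FPKM in Abx, led by Dntt, with Rag2 listed at 0 throughout. The sum of 7 NK cell genes was 0 to 23.8 FPKM in Con against 215 to 224 FPKM in Abx, all of it Gzma in Abx, with Klrb1c and Prf1 listed at 0. Ncr1 and Klre1 went the other way, at 7.90 and 2.09 FPKM in Con replicate 1 and at 0 in each Abx library. The NK cell sum is thus the level of 1 gene in Abx. The sort was set to gate out cells bearing B220, CD3e, TCR-β or NK1.1. How many such cells remained is not known from these values, and their part in the histone levels was not tested.

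Of 12 ILC2 markers 11 were tested, 5 fitted higher and 6 lower. The 5 higher were Id2, Il7r, Il17rb, Thy1 and Klrg1, and all overlapped. At an unadjusted p under 0.05, where 4.74% of all genes tested were higher and 6.25% lower, stood none of the 5 and 3 of the 6. These 3 were Icos, a costimulatory receptor, at 240.5 to 289 FPKM in Con against 82.4 to 120.3 FPKM in Abx (−1.37 ± 0.23, adjusted p = 0.091), the cytokine gene Areg, at 657 to 783 FPKM against 197 to 393 FPKM (−1.40 ± 0.27, adjusted p = 0.091), and Arg1, at 577 to 675 FPKM against 377 to 525 FPKM (−0.54 ± 0.19, adjusted p = 0.33). All 3 had each Abx library below Con, where 8.73% of all genes tested did. Gata3, which defines the lineage, was at 76.1 to 97.5 FPKM in Con against 33.9 to 95.8 FPKM in Abx. The receptor gene Il1rl1 was at 0.06 to 2.94 FPKM in Con against 0.03 FPKM or less in Abx. The sum of 8 erythroid genes was 6422 to 14823 FPKM in Con against 3185 to 8659 FPKM in Abx. The sums of 8 myeloid genes (147 to 404 FPKM and 176 to 384 FPKM), 7 epithelial genes (24.6 to 1158 FPKM and 55.7 to 142 FPKM), 5 endothelial genes (5.10 to 10.8 FPKM and 6.14 to 21.1 FPKM) and 5 fibroblast genes (0.53 to 0.86 FPKM and 0.58 to 2.81 FPKM) overlapped between Con and Abx.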

How the data were processed

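SMART-seq libraries of sorted lung ILC2s, 3 Abx and 3 Con, were compared. The deposited values are FPKM per gene, which the authors made after trimming with Cutadapt 1.9, mapping with HISAT2 2.0.4 and assembly with StringTie 1.3.4d. The methods name a human Ensembl 96 genome and the submitters' processing notes name Bowtie 0.12.2 with mm8 and mm9, while the identifiers are of mouse. Of 55394 identifiers, 55134 were found in GENCODE M21 (GRCm38), which gave symbols, coordinates and transcripts. The build behind the values is thus unsettled, and the coordinates printed are those of GRCm38. The authors tested with DESeq2, which needs read counts, so limma 3.58.1 (R 4.3.3; lmFit, eBayes with trend) was fitted to log2(FPKM + 1), pseudocount 1, over every gene that reached 1 FPKM in 3 or more libraries, without scaling between libraries. Read depth is unknown and values of 0 are given as listed at 0.

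Sums and shares use all genes as the denominator and have no test. Sequences were handled with Biopython 1.88 and tables with pandas 2.3.3 in Python 3.11.15. Promoter sequence is from RefSeq (GRCm38.p6). Genes named are members with at least 5 FPKM in a library, Hist1h2ao with its nearest members by sequence and position, chosen genes of the pathway lists and any list gene called. Gm11336, Icos, Areg, Arg1, Id2, Il7r, Il17rb, Thy1, Klrg1, Cd79b, Trbc1, Trbc2, Trac, Cd3e, Ncr1, Gins4, Asf1a, Cabin1, Ssrp1, Cpsf1, Ttk, Kif23 and genes under 5 FPKM were named after their values were seen. Members and lists were chosen with earlier results of these data known. The lists cover histone variants, histone mRNA factors, chaperones, S phase and mitosis genes, and markers of ILC2s, B cells, T cells, thymocytes, NK cells, myeloid, erythroid, epithelial and endothelial cells and fibroblasts. The settings varied were the pseudocount (0.1, 0.01), the scaling (quantile, median centring), the filter (none, or a mean of 5 FPKM), the replicate number as a block, each library left out, and other denominators. The fit was tested on simulated data. Not every listed gene is reported here.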

Additional observations from a re-analysis of the deposited data

How the results depend on the processing

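Over all genes, 5 were called. This became 0 with a pseudocount of 0.1 or 0.01, median centring, no filter or the replicate block, and 0 to 2 with 1 library left out. In the same settings the 1 histone call, Hist1h2ao, became 0 (0 to 0 with 1 library left out), while quantile normalization and the stricter filter gave 7 calls with 1 histone gene among them. Replicate numbers shared by the groups did not pair the libraries (r of deviations −0.020, −0.029 and 0.0097), so the block adds no information on pairing.

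The median log2 fold change of the histone genes other than Hist1h2ao (0.80) was 1.23 with a pseudocount of 0.01, 1.14 with the stricter filter and, in an alternative added after seeing the data, 0.23 over the 5 tested genes that keep the older name. The H4 median (0.23) was −0.11 and −0.84 with pseudocounts of 0.1 and 0.01 and −0.52 to 1.62 with 1 library left out. It was −0.52 without Con replicate 1, −0.42 without Con replicate 3, −0.39 without Abx replicate 2 and −0.36 without Abx replicate 3. The difference in share of total FPKM (0.295 percentage points) was 0.114 without Hist1h2ao and 0.509 with the 100 most abundant and all mitochondrial genes left out of the total. With 1 library left out it stayed between 0.220 and 0.334, and over the 9 older names, also added after seeing the data, it was 0.190. The causes were not tested. The unknown depth leaves genes near 0 without a counting error, which touches most H3 and H4 members.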
